A study of Mus musculus with 6 samples.

Results

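The genes described here are the ligands, soluble inhibitors and receptors of the interleukin-1 (IL-1) family: Il1a, Il1b, Il18, Il33, Il1rn, Il18bp, Il1r1, Il1r2, Il1rap and Il1rl1. They are the rows of the deposited gene table whose symbol equals 1 of these 10 names. All 10 were found among 55291 genes. RNA was sequenced from marrow flushed from the femur, 1 library per mouse, with 3 mice of each genotype, all aged 6 to 8 weeks. The wild types are numbered WT 1 to 3 and the P2rx7 knockouts are lettered knockout A to C. Where 3 values of a genotype are listed, they follow that order. The labels state neither the strain, the sex nor the exons that the knockout allele lacks. The replicates are separate mice per the series' design text.

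IL-1α (Il1a) and IL-1β (Il1b) signal through the receptor Il1r1 together with the shared accessory chain Il1rap. The same pair of receptor chains is blocked by the antagonist Il1rn, which occupies Il1r1 without signalling, and the decoy receptor Il1r2 binds IL-1 but has no signalling domain inside the cell. IL-18 (Il18) acts through Il18r1 and Il18rap and is held in solution by the binding protein Il18bp, while IL-33 (Il33) acts through Il1rl1, also called ST2, and Il1rap. P2rx7 encodes an ATP-gated channel. In macrophages its opening lets potassium out, which activates the NLRP3 inflammasome, and caspase-1 then cuts the precursors of IL-1β and IL-18. RNA levels show the precursors' transcripts and not this cutting or release.

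The libraries held 18716704 to 23575652 counts. P2rx7 fell in the knockouts and was still expressed, with 1207, 1410 and 1453 counts in the wild types against 876, 722 and 748 in the knockouts (log2 fold change -0.67 ± 0.05 SE, adjusted p = 0.0109 by edgeR's quasi-likelihood test). This call was lost without knockout B (adjusted p = 0.0763) or C (0.0973), and with a term for the library sets described below (-0.64, adjusted p = 0.112, edgeR). Macrophage and stromal markers were abundant: Lyz2 was at 3799 to 4761 FPKM and Col1a1 at 1165 to 1620 FPKM. FPKM is counts scaled to exon length and library size, and is the scale used below to compare genes with each other. Defining genes of red cell precursors, which whole marrow holds, were nearly absent: Hba-a1 had 0 to 2 counts per library, Hbb-bs 0 to 5 and Slc4a1 0. Of T cell genes Cd3e had 0 counts and Cd3d 0 to 2, while the T cell receptor gene Trac had 5 to 40. Against the limit that a count of 0 allows, Slc4a1 and Cd3e were below 3 counts, or 0.127 to 0.160 CPM (counts scaled to library size only), in every library. The libraries were put into 2 sets by Gh and Alb, transcripts foreign to marrow. The pituitary gene Gh had counts in the wild types and knockout A alone, and the liver gene Alb was counted 46 times in knockout B, 36 times in knockout C and 0 times elsewhere. Prl split as Gh did. Pomc did not split this cleanly, with 29, 28 and 41 counts in the wild types and 18, 8 and 1 in the knockouts. Of the liver genes, Apoa1 also had 1 count in knockout A and Ttr 1 in WT 3. Within the first set the genotype rests on knockout A, and the second set holds no wild type.

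The family was dominated by its antagonist. Il1rn had the highest level of the 10 genes in each of the 6 libraries, at 72.7 to 175 FPKM, and ranked between place 171 and place 550 among all genes of a library. Il18 came next at 13.2 to 17.2 FPKM. Il18bp and Il1r1 followed at 4.31 to 7.48 and 3.29 to 6.03 FPKM. Il18bp was above Il1r1 in 5 of 6 libraries, with WT 1 the exception, so these neighbours in the order were not separated by their spread. Il1rap was at 2.02 to 2.54 FPKM, below Il1r1 in every library. Il1r2 (0.118 to 0.992 FPKM) and Il1rl1 (0.336 to 1.07 FPKM) overlapped in range, and Il1r2 was the higher in 4 of 6 libraries. The agonist Il1b lay at 0.0710 to 0.385 FPKM, below Il1rl1 in all 6 libraries. Il33 and Il1a were lowest, at 0.0182 to 0.155 and 0.0438 to 0.131 FPKM, and each was above the other in 3 libraries. In bulk RNA, fewer cells of a type and less RNA per cell cannot be told apart.

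**Figure D1:**
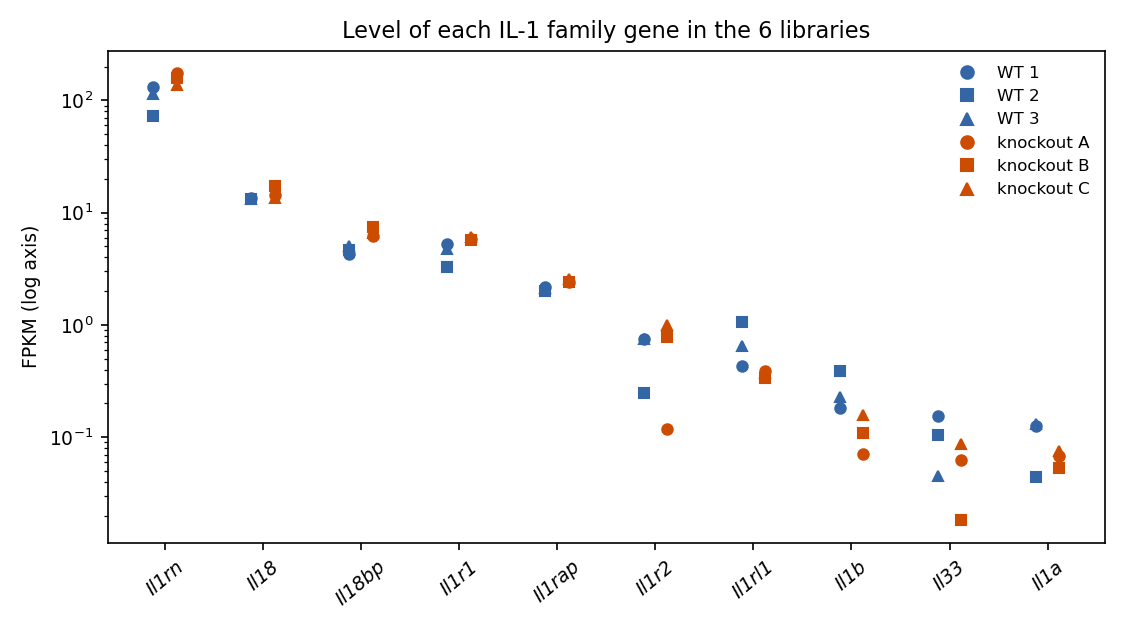
Level of the 10 IL-1 family genes (horizontal axis, ordered by median) in FPKM on a log axis, with 1 symbol per library and blue for wild types, orange for knockouts. Il1rn sits at 72.7 to 175 FPKM in all libraries, while Il1b, Il33 and Il1a stay at or below 0.385 FPKM.

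Sequence before the annotated start is shown for the antagonist, which had the highest level, for the agonist Il1b, which was low, and for the receptors Il1r1 and Il1rl1, which lay on opposite sides of the wild types in the comparison below. Each run is the 250 bases before the start (RefSeq, GRCm38.p6), written 5′ to 3′ on the gene's strand. Il1rn lies on chromosome 2 (24336853 to 24351494, plus strand) and start 1 of its 3 annotated starts has the window chr2:24336610-24336859. The Il1b window is chr2:129371140-129371389 on the minus strand, that of Il1r1 start 1 is chr1:40224830-40225079 and that of Il1rl1 start 1 is chr1:40429320-40429569, both on the plus strand. Capitals mark letters that match a motif searched for.
Il1rn, start 1: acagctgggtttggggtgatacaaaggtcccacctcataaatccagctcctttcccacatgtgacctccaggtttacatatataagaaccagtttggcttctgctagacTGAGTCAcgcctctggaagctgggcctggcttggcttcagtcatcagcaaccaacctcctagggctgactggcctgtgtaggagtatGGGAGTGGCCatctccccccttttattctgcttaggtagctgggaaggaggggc
Il1b: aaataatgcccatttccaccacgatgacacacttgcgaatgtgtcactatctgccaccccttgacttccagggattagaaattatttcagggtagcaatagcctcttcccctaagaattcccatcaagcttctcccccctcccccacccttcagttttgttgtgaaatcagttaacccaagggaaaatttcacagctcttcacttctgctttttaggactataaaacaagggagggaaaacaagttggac
Il1r1, start 1: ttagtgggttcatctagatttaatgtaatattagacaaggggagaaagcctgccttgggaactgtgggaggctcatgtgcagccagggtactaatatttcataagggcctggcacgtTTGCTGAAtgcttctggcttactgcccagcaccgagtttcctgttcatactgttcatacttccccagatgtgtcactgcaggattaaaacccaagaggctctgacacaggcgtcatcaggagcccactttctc
Il1rl1, start 1: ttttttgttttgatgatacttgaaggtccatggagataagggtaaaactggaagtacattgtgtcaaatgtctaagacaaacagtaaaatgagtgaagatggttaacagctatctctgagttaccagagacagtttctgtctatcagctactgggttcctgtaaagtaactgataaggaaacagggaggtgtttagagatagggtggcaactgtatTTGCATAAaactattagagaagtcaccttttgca

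Motifs were searched on both strands of these windows: AP-1 as TGANTCA, NF-kB as GGG and CC with any 5 bases between them, the interferon-stimulated response element (ISRE) as GAAA and GAAA with any 2 bases between them, the gamma-activated site (GAS) as TTCNNNGAA and C/EBP as TTGCNNAA. The Il1rn window holds the AP-1 letters TGAGTCA at 141 to 135 bases before the start and the NF-kB letters GGGAGTGGCC at 54 to 45 bases before it. The start 1 windows of both receptors hold C/EBP letters, TTGCTGAA at 133 to 126 bases before the start of Il1r1 and TTGCATAA at 34 to 27 bases before that of Il1rl1. None of the 5 motifs has a match in the Il1b window. Il1rn also has starts 2 and 3, and Il1r1 and Il1rl1 each have a start 2. The windows of these starts lack the AP-1 and C/EBP letters. Il1rn start 3 and Il1r1 start 2 hold NF-kB letters, and the others hold no match. Which start these cells use was not tested. Of 32851 promoter windows of the same length, 6.75% hold the AP-1 letters, 45.8% the NF-kB letters, 2.98% the ISRE letters, 7.02% the GAS letters and 9.56% the C/EBP letters. The C/EBP letters stand before start 1 of both a receptor that was higher and a receptor that was lower in the knockouts, and a match describes letters only.

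Between the genotypes, 0 of the 7 members that could be tested passed an adjusted p of 0.05 (edgeR), where 0.103% of 15478 tested genes did (0.0581% higher and 0.0452% lower in knockouts). An unadjusted p below 0.05 was reached by 5 of the 7 members in the same fit and by 16.6% of all tested genes. The members Il1a, Il1b and Il33 had too few counts for the filter. DESeq2 called 1 member (Il18bp) and edgeR without a filter on low counts called 4 (Il1rn, Il18bp, Il1r1 and Il1rl1), while these settings called 2.64% and 3.2% of all genes they tested. Among the 7 tested members the FPKM values of the genotypes did not overlap for 5 that were higher in the knockouts (Il1rn, Il18bp, Il1r1, Il1rap and Il18) and 1 that was lower (Il1rl1). Of all tested genes 21.8% did not overlap, 11.1% higher and 10.7% lower. Of the members below the filter, Il1b was lower in the knockouts without overlap, and Il1a and Il33 overlapped. The 7 tested members had a median log2 fold change of 0.22, against 0.00 over all tested genes. This median describes the list and sets nothing apart.

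Il1rn, the receptor antagonist, was higher in every knockout than in any wild type. Its level was 132, 72.7 and 114 FPKM in the wild types and 175, 157 and 138 FPKM in the knockouts. WT 2 was the low library, and the highest wild type lay just under the lowest knockout. In TMM-scaled counts the means were 588 ± 172 CPM in wild types and 870 ± 96.5 CPM in knockouts (SD, n = 3). The log2 fold change was 0.57 ± 0.20 (SE), with a 95% interval of 0.11 to 1.03 before adjustment and an adjusted p of 0.232 (edgeR). Without WT 2 it was 0.35 (adjusted p = 0.267, edgeR). Of 10 marrow stroma markers, 7 also had their lowest FPKM in WT 2, among them Cxcl12 with 30969 counts there and 53787 or more in the other libraries. Col1a1 went the other way, with its highest level in WT 2 (1620 FPKM). The summed FPKM of the list, which Col1a1 leads, was 2158 in WT 2. This lay within the 2036 to 2427 of the wild types and below the 2202 to 2382 of the knockouts. Between genotypes, Cxcl12, Lepr, Kitl and Ebf3 were higher in every knockout and Col1a1 was lower in every knockout. The other stroma markers of the list overlapped. The summed FPKM of the 10 monocyte and macrophage markers did not single out WT 2: it was 7010 to 7784 in wild types and 7105 to 7555 in knockouts. Lyz2 led that sum, at 3799 to 4761 FPKM. Of the 10 markers, 3 had their lowest FPKM in WT 2, among them Mrc1 (338 FPKM), and 3 in knockout C. Mrc1 and Cd68 were higher in the knockouts without overlap, and Cd163 was lower. What part either population has in the Il1rn values was not tested.

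Il18bp, which neutralises IL-18, had the smallest p of the family. Its level was 4.31, 4.65 and 5.07 FPKM in the wild types and 6.24, 7.48 and 6.62 FPKM in the knockouts. The groups were separate, and no single library stood far from its group. The log2 fold change was 0.54 ± 0.10 (SE; 95% interval 0.32 to 0.76; adjusted p = 0.101, edgeR). Il18bp was called by DESeq2 (adjusted p = 0.00497), by edgeR without a filter (0.00208) and by edgeR without WT 3 (0.0497, a setting that called 1.1% of all genes tested), and its adjusted p was up to 0.837 over the other settings. The gene lies on chromosome 7 at 102014885 to 102018690 (minus strand) and shares 80 exon bases, 2.64% of its 3026, with Numa1 on the plus strand. Numa1 had 3705 to 4823 counts against 262 to 430 of Il18bp, and without known strand reads in the shared bases cannot be assigned. Numa1 itself had a log2 fold change of -0.01 (adjusted p = 0.944, edgeR).

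**Figure D2:**
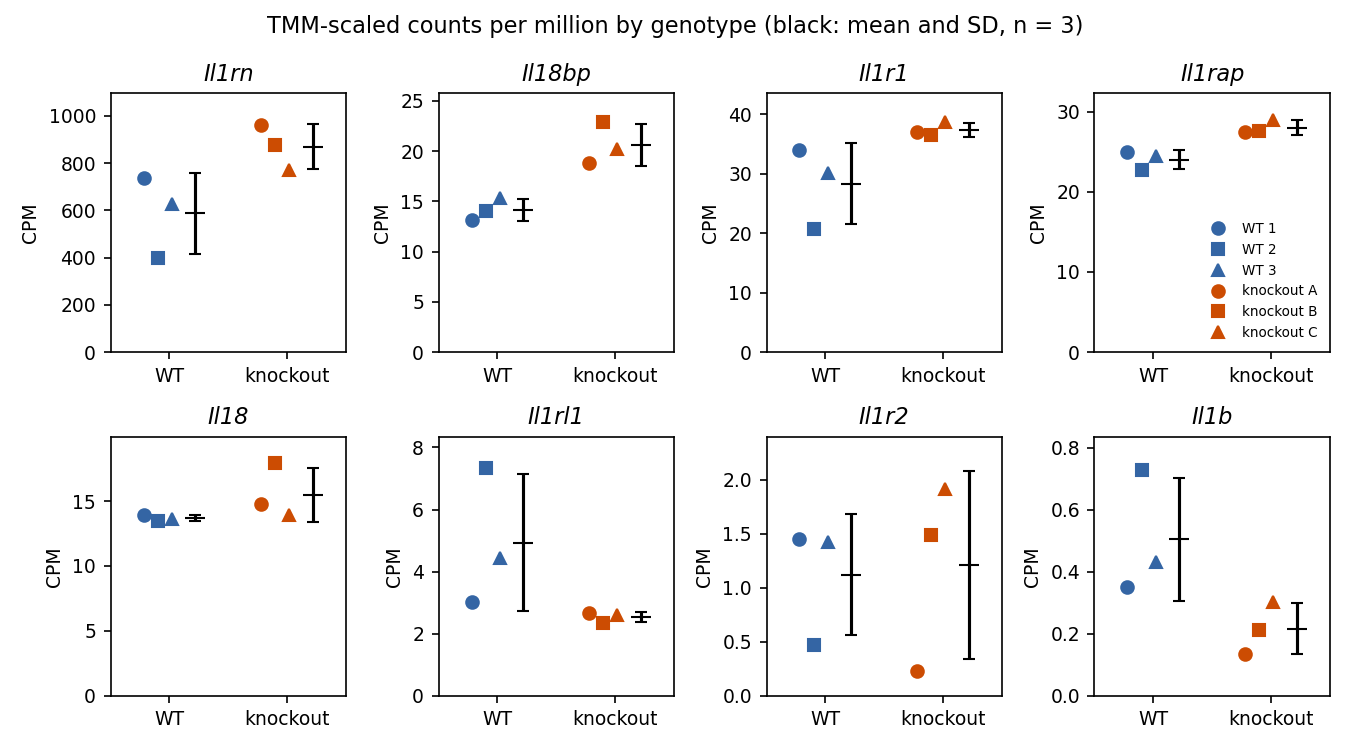
TMM-scaled CPM of 8 IL-1 family genes in wild types (blue) and knockouts (orange), 1 symbol per library, with the mean and SD (n = 3) in black and all axes starting at 0. The knockouts lie above the wild types for Il1rn, Il18bp, Il1r1 and Il1rap, below them for Il1rl1 and Il1b, and among them for Il1r2. Knockout C meets the wild types for Il18.

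The agonists were scarce in both genotypes. Il1b had 7, 17 and 10 counts in the wild types and 3, 4 and 6 in the knockouts. WT 2 held the most, and each knockout held fewer than each wild type. Over all libraries of a genotype these are 34 counts in wild types and 13 in knockouts, a knockout to wild-type ratio of 0.415 after scaling for depth (exact 95% binomial interval 0.201 to 0.806, counting error only). In edgeR without a filter the log2 fold change of Il1b was -1.24 ± 0.50 (SE, adjusted p = 0.263), and in DESeq2 it was -1.24 ± 0.78 (adjusted p = 0.671). By exact permutation (two-sided) p was 0.1, the lowest that 3 libraries against 3 can reach. Il1bos, an antisense gene that shares 25 exon bases with Il1b, had 0 to 3 counts.

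Il1a, whose gene lies beside Il1b on chromosome 2 (129299610 to 129309972, minus strand), had 5, 2 and 6 counts in the wild types and 3, 2 and 3 in the knockouts. The groups overlapped, and the ratio of knockout to wild type was 0.667 (exact 95% binomial interval 0.240 to 1.74). Its exons share 222 bases, or 11.2%, with the antisense gene Gm14023, which had 3 to 8 counts per library, so even these few counts are uncertain. Il33, an alarmin stored in nuclei of stromal and endothelial cells, had 9, 7 and 3 counts in the wild types and 4, 1 and 5 in the knockouts. Its ratio was 0.571 (exact 95% binomial interval 0.237 to 1.29). No difference in Il1a or Il33 was detectable at this depth.

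Il18 was the one agonist with a sizeable transcript level, and the interval of its difference between genotypes included 0. Its values were 13.4, 13.2 and 13.2 FPKM in the wild types and 14.4, 17.2 and 13.4 FPKM in the knockouts. Knockout B was the high library, and knockout C and WT 1 were equal to 3 digits. The log2 fold change was 0.18 ± 0.10 (SE; 95% interval -0.05 to 0.42; adjusted p = 0.405, edgeR).

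The signalling receptor and its accessory chain were both higher in the knockouts by small amounts. Il1r1 was at 5.29, 3.29 and 4.75 FPKM in the wild types and at 5.84, 5.67 and 6.03 FPKM in the knockouts. WT 2 was again the low library, and the 3 knockouts were tightly grouped. The log2 fold change of Il1r1 was 0.40 ± 0.15 (SE; 95% interval 0.05 to 0.76; adjusted p = 0.256, edgeR), and 0.22 without WT 2 (adjusted p = 0.301). Il1rap was at 2.18, 2.02 and 2.15 FPKM in the wild types and 2.42, 2.41 and 2.54 FPKM in the knockouts. The libraries of each genotype lay close together, and the groups were separate. The log2 fold change of Il1rap was 0.22 ± 0.06 (SE; 95% interval 0.08 to 0.37; adjusted p = 0.180, edgeR).

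Il1rl1, the IL-33 receptor that mast cells, innate lymphocytes and some stromal cells carry, was lower in the knockouts. Its counts were 60, 171 and 103 in the wild types and 59, 44 and 52 in the knockouts. In FPKM, WT 1 at 0.434 lay close above knockout A at 0.386, and WT 2 at 1.07 stood far above all others. The log2 fold change was -0.96 ± 0.31 (SE; 95% interval -1.67 to -0.26; adjusted p = 0.206, edgeR), and -0.56 without WT 2 (adjusted p = 0.392). The basophil protease gene Mcpt8 was also highest in WT 2, with 124 counts against 45 to 61 elsewhere. The summed FPKM of the 10 mast cell, basophil and eosinophil markers was lowest in WT 2, at 7.59, and lay at 7.59 to 9.21 in wild types and 11.8 to 14.3 in knockouts. Kit weighed most on that sum in the knockouts. It was at 3.15, 0.756 and 3.15 FPKM in the wild types and 8.7, 7.24 and 5.62 FPKM in the knockouts. In FPKM Cpa3 was also higher in every knockout, at no more than 1.12, though WT 3 and knockout A each had 16 counts. The other markers of the list, Mcpt8 among them, overlapped between genotypes. Of that list 3 markers had at most 10 counts in any library, among them Fcer1a with 0 or 1. What part these cells have in the Il1rl1 values was not tested.

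Il1r2, the decoy receptor typical of neutrophils, varied widely within each genotype. Its counts were 29, 11 and 33 in the wild types and 5, 28 and 38 in the knockouts. Knockout A and WT 2 were low, and the groups overlapped. Its log2 fold change was 0.10 ± 0.65 (SE; 95% interval -1.4 to 1.6; adjusted p = 0.958, edgeR), an interval wide enough to hold a large change either way. Knockout A and WT 2 also held the lowest summed FPKM of the 10 mature neutrophil markers, 39.0 and 86.5 against 188 to 247 in the other libraries. S100a8 and S100a9 made up 56.7% to 87.2% of that sum in a library. Only 3 of the 10 markers had their lowest values in these 2 libraries: S100a8, S100a9 and Retnlg. Knockout A alone was lowest for 7 of the 10. Of the 10 neutrophil precursor markers, 6 were lowest in these 2 libraries, while Mpo, Prtn3, Ctsg and Ms4a3 were higher in knockout A than in WT 1. Csf3r was lowest in WT 1 (7.94 FPKM), and Mmp8 was higher in WT 2 (15.4 FPKM) than in WT 3 and knockouts B and C. What part the share of neutrophils has in the Il1r2 values was not tested.

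**Figure D3:**
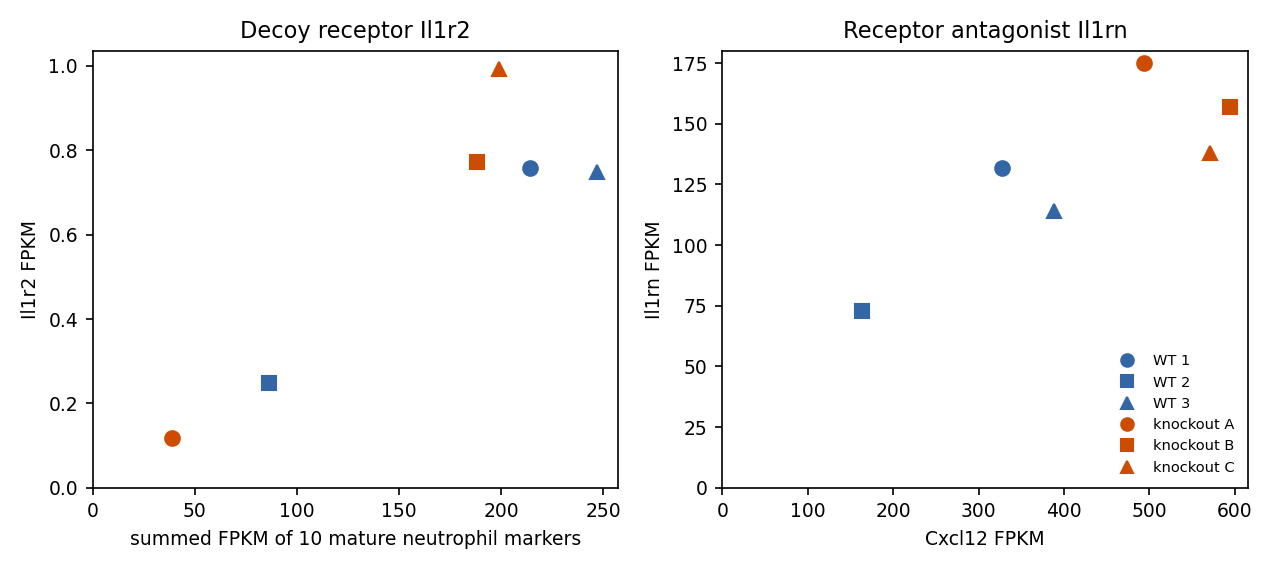
Left, Il1r2 FPKM against the summed FPKM of 10 mature neutrophil markers, and right, Il1rn FPKM against Cxcl12 FPKM, with 1 symbol per library and linear axes from 0. Knockout A and WT 2 are lowest on both axes at left (39.0 and 86.5 in summed marker FPKM), and WT 2 is lowest on both axes at right. The pairs of measures were chosen after their values were seen.

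Ratios within a library set each inhibitor against its partner. In FPKM, Il1rn exceeded Il1b by 722, 189 and 501 times in the wild types and by 2460, 1420 and 882 times in the knockouts. On the log2 scale the ratio was 1.83 higher in knockouts, at 10.51 ± 0.74 against 8.68 ± 1.0 in wild types (SD, n = 3; exact two-sided permutation p = 0.1, and 0.133 adjusted over the 4 ratios). With 3 to 17 Il1b counts per library the single ratios are imprecise. Il1rn was higher and Il1b lower in every knockout, so this ratio had to separate the genotypes. Its p therefore adds nothing to the values of the single genes. Il1rn over Il1a was 1.06 higher on the log2 scale in knockouts, and Il18bp over Il18 was 0.37 higher. For each, the exact permutation p was 0.1 and the adjusted p 0.133. Il1a had 2 to 6 counts per library and overlapped between genotypes, so the Il1rn to Il1a ratios are imprecise too. The Il18bp to Il18 ratio was 0.322, 0.353 and 0.384 in the wild types and 0.433, 0.436 and 0.494 in the knockouts, so the groups did not overlap. The decoy to receptor ratio, Il1r2 over Il1r1, was 0.143, 0.0758 and 0.157 in the wild types and 0.0203, 0.136 and 0.165 in the knockouts (exact permutation p = 0.7). It followed the low Il1r2 of knockout A. With 3 against 3 libraries none of these permutation tests can go below p = 0.1.

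**Figure D4:**
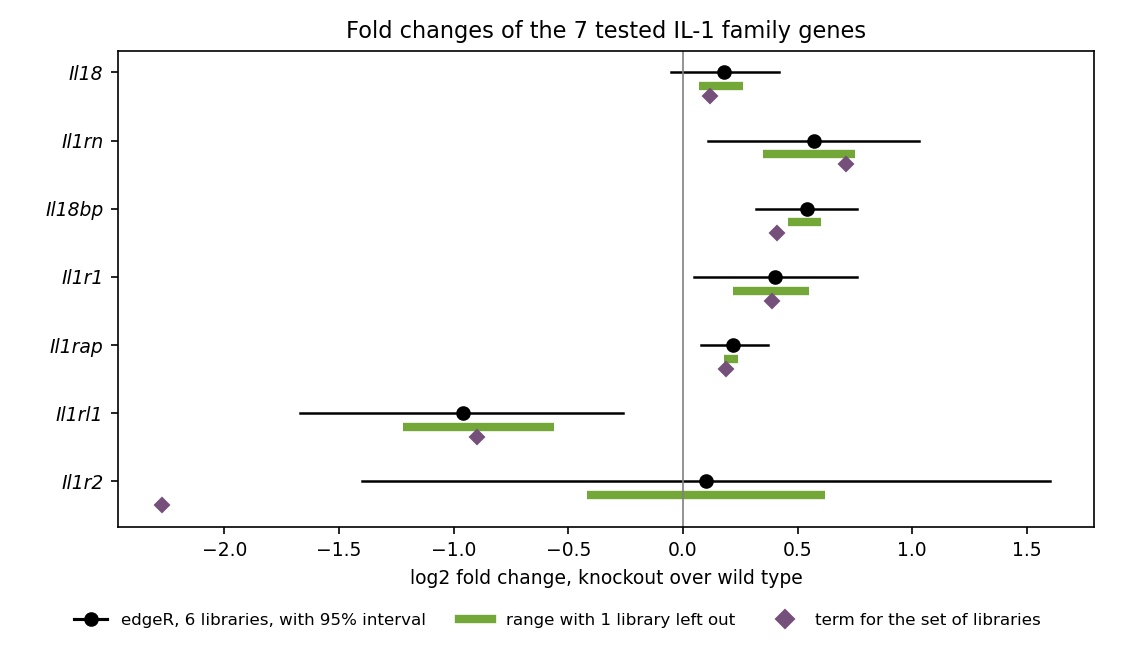
Log2 fold change (knockout over wild type, horizontal axis) of the 7 tested members with the unadjusted 95% interval in black, the range over fits that each leave out 1 library in green, and the fit with a term for the set of libraries as a diamond. The green ranges lie above 0 for Il18, Il1rn, Il18bp, Il1r1 and Il1rap, below 0 for Il1rl1 (-1.22 to -0.56), and across 0 for Il1r2 (-0.42 to 0.62). In all but Il1r2 the genotypes did not overlap, so leaving out 1 library could hardly change the sign.

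With a term for the 2 sets of libraries, which leaves knockout A alone to carry the genotype, the log2 fold changes were 0.71 for Il1rn, 0.41 for Il18bp, 0.39 for Il1r1, 0.19 for Il1rap, 0.12 for Il18 and -0.90 for Il1rl1. Knockout A lay beyond all wild types in these 6 genes, so these directions follow from the groups not overlapping. The value for Il1r2 became -2.27, and the lowest adjusted p among the 7 members was 0.837 (edgeR). Library set and genotype cannot be told apart for knockouts B and C.

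Of the genes most like Il1rn and Il1r1 in pattern, likeness was the root mean square distance between log2 CPM profiles over the 6 libraries, each centred on its mean, among 13148 named genes. Nearest to Il1rn were the melanocortin receptor gene Mc5r (distance 0.0849), Gatb of mitochondrial translation (0.0913) and the tight junction gene Cldn1 (0.0962), where Il1rn itself varied by 0.412 about its mean. Nearest to Il1r1 were Hnmt, which inactivates histamine (0.0584), the sodium-calcium exchanger gene Slc8a3 (0.0676) and Mettl7a1 (0.0690), against 0.304 for Il1r1. All 6 share the low value of WT 2, which follows from choosing them for their likeness to these profiles. Il1b was too low for such a comparison.

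The remaining family members did not exceed 2.02 FPKM in any library, reached by Il1rl2, which lay above Il1r2 and Il1rl1. Of the 5 other ligand genes in the table, Il1f9, which encodes IL-36γ, had the most counts, 4 to 15 per library, and none passed the filter. Il1rl2, the IL-36 receptor, was at 1.62 to 2.02 FPKM and its log2 difference between genotypes was 0.22 ± 0.08 (SE, adjusted p = 0.262, edgeR). Il18r1, the ligand-binding chain of the IL-18 receptor, had 1, 4 and 10 counts in the wild types and 12, 26 and 26 in the knockouts. Its log2 fold change was 2.21 ± 0.59 (SE, adjusted p = 0.167, edgeR), and 0 of the 4 tested receptors of this list passed. The partner chain Il18rap did not show this pattern, at 97, 103 and 120 counts in wild types and 63, 124 and 126 in knockouts. Genes of natural killer cells, which carry Il18r1, were also at more counts in some knockouts: Klrb1c had 0, 5 and 7 counts in wild types and 11, 29 and 18 in knockouts. The summed FPKM of the 10 T cell, NK cell and innate lymphocyte markers was 6.01 to 6.52 in wild types and 7.56 to 10.7 in knockouts, with Cd3e at 0. Trac did not share this direction, with 16, 40 and 19 counts in wild types and 16, 5 and 14 in knockouts. Rora led the sum in the wild types (3.59, 2.78 and 3.29 FPKM) and in knockout A (4.07 FPKM), and overlapped between genotypes. What part natural killer cells have in the Il18r1 values was not tested. For Sigirr, an inhibitory receptor of the family, the log2 value was 0.75 ± 0.32 (SE, adjusted p = 0.291, edgeR).

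Downstream of the receptor, 0 of 17 tested signalling genes passed in either direction, and their median log2 fold change was 0.00. Their log2 fold changes were small, from -0.10 for Tab2, an adaptor of the kinase TAK1, to 0.16 for Tab1, its activator. Those with the smallest p were Tab1 (adjusted p = 0.288), Irak3, a brake on IL-1 signalling (0.13, adjusted p = 0.313) and Tab2 (adjusted p = 0.335, all edgeR). Tab2 and Rela, the NF-kB subunit, had the highest levels, 46.7 to 54.0 and 41.5 to 46.3 FPKM.

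Among 12 genes that process or release the cytokines, 0 passed in either direction and the median log2 fold change was 0.13. For Nlrp3, the inflammasome sensor, the log2 value was 0.03 ± 0.07 (SE, adjusted p = 0.886, edgeR). Casp4, which senses bacterial lipopolysaccharide, had 0.43 ± 0.10 (adjusted p = 0.146), and Casp1, which cuts IL-1β and IL-18, had 0.21 ± 0.07 (adjusted p = 0.204). The calpain gene Capn2, of a protease family that cuts IL-1α, had -0.24 ± 0.08 (adjusted p = 0.208, edgeR). S100a10, which binds annexin A2, had the highest level of the list, 129 to 135 FPKM. Elane, a neutrophil elastase that can also cut these cytokines, had 131, 58 and 576 counts in wild types and 136, 1011 and 703 in knockouts, and overlapped between genotypes. In FPKM it ran from 2.55 to 54.1. The summed FPKM of the 10 neutrophil precursor markers, which include Elane, ran from 77.1 to 304 in wild types and 68.1 to 391 in knockouts.

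Genes that IL-1 is known to induce were divided in direction. Of 18 listed, 16 were tested, 0 passed in either direction, and 8 of the 16 had a positive log2 fold change (median -0.02). Steap4, a metalloreductase, had 1.65 ± 0.41 (SE, adjusted p = 0.159, edgeR), with 4.76, 1.16 and 5.82 CPM in the wild types and 12.2, 13.1 and 11.5 CPM in the knockouts. Steap4 passed without WT 2 (1.21, adjusted p = 0.0201, edgeR), a setting that called 0.288% of all genes tested. Ptgs2, which encodes the prostaglandin synthase COX-2, had -1.66 ± 0.58 (adjusted p = 0.229), and WT 2 stood apart at 591 counts against 61 to 156 in the other libraries. Zc3h12a, a nuclease that degrades cytokine transcripts, had 0.21 ± 0.07 (adjusted p = 0.213, edgeR). Mmp13, a collagenase, and the chemokine gene Ccl7 had the highest levels, 25.1 to 106 and 41.7 to 82.7 FPKM, with log2 fold changes of 0.93 ± 0.34 and -0.48 ± 0.20 (adjusted p = 0.245 and 0.275, edgeR).

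**Figure D5:**
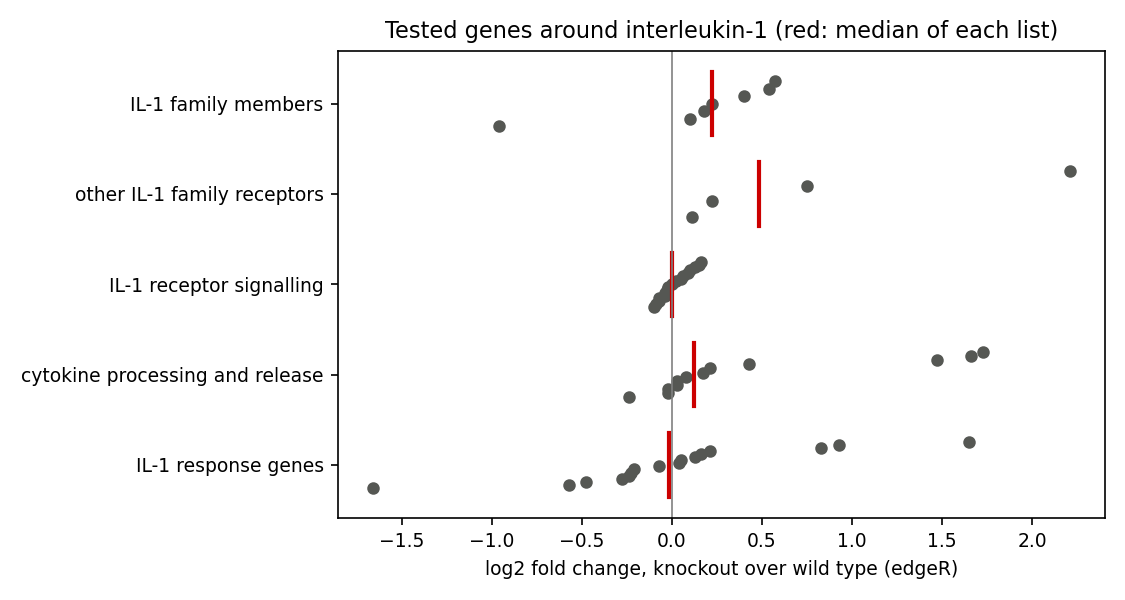
Log2 fold change (knockout over wild type, edgeR) of each tested gene in 5 lists around IL-1, 1 point per gene, with the list's median in red. The signalling genes lie between -0.10 and 0.16, while the response genes spread from -1.66 for Ptgs2 to 1.65 for Steap4.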

How the data were processed

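RNA-seq libraries of 6 mice were analysed, 3 per genotype, grouped by the genotype labels. Per the labels' protocols, each library used 1.3 µg of total RNA and a SMARTer kit for mRNA. The authors deposited 1 table that gives each gene's exons and length, FPKM and raw counts per library. Builds GRCm38 and mm10 are named in the submitters' processing notes, and gene positions are those of the table. Not given in the sources used here are the aligner, the counter and the use of strand. The deposited FPKM values equal count over length and an effective library size (relative tolerance 1e-06 in 100% of values above 0).

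The deposited counts were analysed with edgeR 4.0.16 in R 4.3.3: filterByExpr (15478 genes kept), TMM scaling, a two-sided quasi-likelihood test of genotype on 6 libraries and Benjamini-Hochberg adjustment over all tested genes, at a threshold of 0.05. The procedure was tested on simulated counts. limma 3.58.1 (on log2 FPKM with a pseudocount of 1 or 0.1) and DESeq2 1.42.0 were alternatives, besides other scalings, filters, left-out libraries and a term for the library sets. Single values were tested by exact permutation. Ratios of few counts carry an exact 95% binomial interval, for counting error only, since no molecular identifiers are described. A count of 0 allows up to 3 counts. From each list the 3 genes of smallest p and the 2 of highest FPKM were allowed, and other genes were named after their values were seen. Members and lists were chosen with earlier results of these data known.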

Additional observations from a re-analysis of the deposited data

How the results depend on the processing

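No paired analysis was possible because numbers label the wild types and letters the knockouts, so no samples are paired. Over 15 alternatives for each of the 7 tested members, 100 of 105 log2 fold changes kept their direction and 6 passed the threshold. All 5 reversals were of Il1r2. In the other tested members the genotypes did not overlap, so their direction could hardly change and its constancy is no separate support. The count of members called was 4 without a filter on low counts, 1 with DESeq2 and 0 to 1 with 1 library left out (1 without WT 3, Il18bp). For the listed pathway genes it was 8 without a filter, 1 with DESeq2 (Casp4) and 0 to 1 with 1 library left out (Steap4 without WT 2, Ccl7 without WT 3). For all genes, against 16, it was 970 without a filter, 506 with DESeq2, 10 and 2 with limma at pseudocounts of 1 and 0.1, 0 with the term for the library sets, and 0 to 172 with 1 library left out (0 without knockout B or C, 172 without WT 3). P2rx7 stayed at -0.69 to -0.65 with 1 library left out, above the threshold without knockout B (adjusted p = 0.0763) or C (0.0973, edgeR), and was -0.64 with the set term (0.112). Il1r2 changed sign with limma at a pseudocount of 0.1 (-0.10), with the set term (-2.27) and with 1 library left out (-0.42 to 0.62). The log2 ratio of Il1r2 to Il1r1, -0.64 on all libraries, was -1.19 to 0.33 with 1 library left out, and positive without knockout A alone. The cause of these changes was not tested. The other 3 ratios kept their direction in every alternative run. Their groups did not overlap, so leaving out 1 library could not reverse them. Depth limits Il1a, Il1b and Il33, where a library held 1 to 17 counts.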
